A study of Mus musculus with 43 samples.

Results

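PRC1-CD full-grown mouse oocytes, which the labels describe as carrying a catalytically dead form of Polycomb repressive complex 1 (PRC1), were compared with PRC1-WT oocytes, labelled wild type, by RNA sequencing. Each group had 2 libraries, and each library was made from 10 pooled full-grown oocytes freed of the zona pellucida in acidic Tyrode's solution. Genes were kept where the mean of either group reached 1 RPKM (read number scaled to transcript length and to the size of the library), which 13376 of the 35815 genes in the table did. The genes just inside this limit were D430020J02Rik, Dpf1 and Fezf1, with a higher group mean of 1.0 RPKM, and those just outside were A830052D11Rik, Cry2 and Def8, with 0.995 RPKM. The labels used here give neither the mutated subunit and its allele nor any Cre driver, strain or age. They also do not say whether the libraries came from separate animals. The p-values therefore set each difference against the scatter of these particular libraries, and may not extend to other animals. The tissue label of PRC1-CD replicate 2 says embryo, whereas both its title and its stage name the full-grown oocyte. Many of the counts below, but not all, are therefore also given without it. Those of the Polycomb lists and the promoter classes, among others, are given only with it. Oocytes deleted for Pcgf1 and Pcgf6 together (DKO, 3 libraries) and their own wild-type oocytes (3 libraries), from another table of the series, served only to ask whether an effect differed between the 2 mutants. The series holds 43 samples in all, of which 4 belong to the comparison described here.

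PRC1 places a single ubiquitin on lysine 119 of histone H2A, a mark of silenced genes. Its catalytic subunit is RING1A or RING1B, and 1 of the PCGF proteins decides which partners join the complex. In variant complexes the PCGF protein pairs with RYBP or YAF2 in place of a chromobox protein, and the PCGF6 variant holds the DNA-binding factors MGA, MAX and E2F6. The ubiquitin mark recruits PRC2, which methylates lysine 27 of histone H3 (H3K27me3). In growing oocytes both marks spread over silent genes, and maternal H3K27me3 at some loci is passed to the embryo, where it silences the maternal allele.

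The libraries resembled each other within groups more than between groups. Summed RPKM ranged from 622628 to 670409, and the correlation of log2(RPKM + 1) was 0.984 between the PRC1-CD libraries and 0.987 between the PRC1-WT libraries, against 0.934 to 0.945 between groups. The PRC1-CD libraries had 12726 and 13086 genes at 1 RPKM or more, against 11734 and 11637 in the PRC1-WT libraries. Read depth is unknown, since the table holds RPKM values and no counts. All 14 oocyte markers reached 1 RPKM in every library and none was called. Their share of summed RPKM was 2.75% and 2.41% in PRC1-CD and 2.55% and 2.90% in PRC1-WT (exact permutation test, two-sided, p = 0.667, where 0.333 is the smallest p that 2 against 2 libraries allow). Mitochondrially encoded transcripts took 1.77% and 1.48% in PRC1-CD and 2.11% and 1.31% in PRC1-WT (exact permutation test, p = 1.0). Markers of blood cells summed to 3.53 and 2.64 RPKM in PRC1-CD and 2.99 and 2.24 RPKM in PRC1-WT, and endothelial markers to 11.5 and 10.4 RPKM in PRC1-CD, against 12.6 and 10.1 RPKM in PRC1-WT. In pooled cells, a change in the number of cells of a kind and a change of RNA per cell cannot be told apart.

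More genes were called higher than lower in PRC1-CD oocytes, and the balance depended on the scaling. By limma's moderated test on log2(RPKM + 1), with Benjamini-Hochberg adjustment over all tested genes and an adjusted p threshold of 0.05, 2309 genes were higher in PRC1-CD oocytes (17.3% of those tested) and 750 were lower (5.61%). At least 2-fold changes made up 1415 of the rises and 217 of the falls. The median change over all tested genes was 0.04 on the log2 scale. Genes with a PRC1-WT mean under 1 RPKM entered the test only where the PRC1-CD mean reached 1 RPKM, so a higher value in PRC1-CD was their condition of entry. As a description, 251 of 269 such genes with a PRC1-WT mean under 0.1 RPKM were called higher, as were 910 of 1368 between 0.1 and 1 RPKM. Among the 11739 genes with a PRC1-WT mean of at least 1 RPKM, 1148 were higher (9.78%) and 750 lower (6.39%), with a median of -0.03. For these same genes, median-ratio scaling gave 1091 higher and 911 lower, and quantile normalization 931 higher and 1538 lower (median -0.14). From 100 RPKM upward 33 genes were higher and 60 lower of 1252.

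The called genes held a small part of the RNA. Genes called higher took 7.32% and 7.54% of summed RPKM in the PRC1-CD libraries, against 3.26% and 3.25% in the PRC1-WT libraries, and genes called lower took 2.35% and 2.36% in PRC1-CD, against 4.62% and 4.21% in PRC1-WT. The groups did not overlap at 8483 of the 13376 tested genes (63.4%), 4835 of them higher and 3648 lower in PRC1-CD. Called genes were named below only where the groups did not overlap, so that separation is no further evidence at a named called gene. Under quantile normalization, which forces the libraries to 1 distribution, the median change of all tested genes moved to -0.085, and the calls came to 1608 higher and 1538 lower (51.1% higher, against 75.5% in the unscaled values). Without PRC1-CD replicate 2, 1220 genes were higher and 132 lower, and 1260 of these calls were shared with the full comparison in the same direction.

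**Figure D1:**
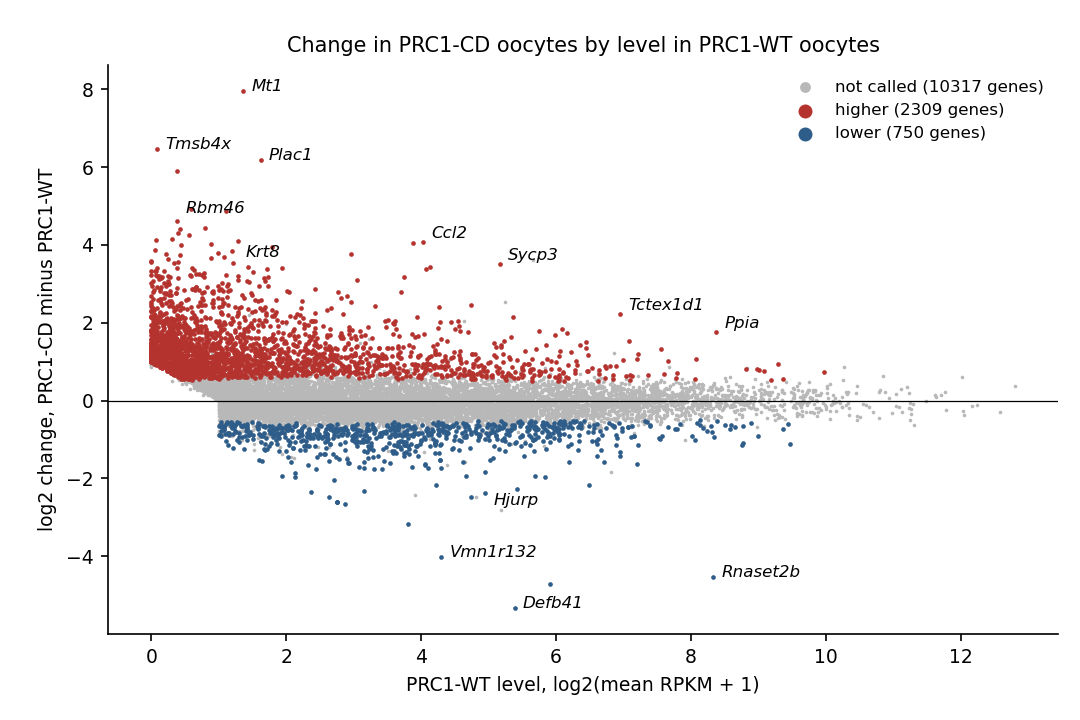
Each point is 1 of the 13376 tested genes, with its PRC1-WT level as log2(mean RPKM + 1) on the x axis and the log2 change of PRC1-CD minus PRC1-WT on the y axis. The 2309 genes called higher (red) crowd at the left, where genes below 1 RPKM in PRC1-WT were let in only by their PRC1-CD level, while the 750 genes called lower (blue) start at 1 RPKM, where the filter first lets a fall be seen.

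The largest rise was that of Mt1, which encodes a metallothionein, a small cysteine-rich protein that binds zinc and copper. Mt1 had 547 and 750 RPKM in the PRC1-CD libraries, against 1.57 and 1.56 RPKM in the PRC1-WT libraries. Both PRC1-CD values lay far above both PRC1-WT values, a 414-fold ratio of the means (log2 change 7.97 ± 0.19 SE, limma adjusted p = 1.18e-05). Mt4, the metallothionein of stratified epithelia, had 92.4 and 110 RPKM in PRC1-CD, against 18.1 and 18.5 RPKM in PRC1-WT (2.40 ± 0.16, limma adjusted p = 0.000198). Its neighbour Mt2, which in most tissues is induced together with Mt1, had 0.49 and 1.85 RPKM in PRC1-CD and 0.45 and 0.46 RPKM in PRC1-WT and did not pass the test (0.50 ± 0.29, limma adjusted p = 0.262). Mt3, the metallothionein of brain, had 0.31 and 0 RPKM in PRC1-CD and was listed at 0 in PRC1-WT, and was not tested. All 4 genes lie side by side on chromosome 8, so that within 1 cluster the outer pair rose to different heights and the gene beside Mt1 stayed low.

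The promoters of Mt1, Mt2 and Mt4 are shown because these neighbours, which share the metal-response motif, gave such different levels. Each window runs from 250 bases before to 50 bases after a start taken from RefSeq GRCm38.p6. Mt1 is at chr8:94178839-94179138, Mt2 at chr8:94172368-94172667 and Mt4 at chr8:94136954-94137253, all on the plus strand. The start used for Mt2 was not among the annotated transcript starts checked, and Mt2 was added after its values were seen. The annotated gene Mt1 begins at 94178883, so most of the Mt1 window lies inside the gene and not upstream of it. Capitals mark the core of the metal response element, searched as TGCGCNC or TGCACNC on both strands, which the zinc sensor MTF1 recognises.
Mt1: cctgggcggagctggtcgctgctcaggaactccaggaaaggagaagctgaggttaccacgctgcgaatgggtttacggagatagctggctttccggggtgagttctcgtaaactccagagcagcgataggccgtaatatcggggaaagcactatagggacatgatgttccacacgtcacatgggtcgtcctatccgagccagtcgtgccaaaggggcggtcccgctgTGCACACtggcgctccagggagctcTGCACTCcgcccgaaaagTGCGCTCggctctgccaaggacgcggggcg
Mt2: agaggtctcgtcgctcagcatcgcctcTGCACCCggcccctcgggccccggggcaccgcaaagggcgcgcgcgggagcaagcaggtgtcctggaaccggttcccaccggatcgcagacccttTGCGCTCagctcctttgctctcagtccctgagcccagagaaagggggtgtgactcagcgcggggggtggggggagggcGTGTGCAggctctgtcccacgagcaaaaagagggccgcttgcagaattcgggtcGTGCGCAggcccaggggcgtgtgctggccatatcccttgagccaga
Mt4: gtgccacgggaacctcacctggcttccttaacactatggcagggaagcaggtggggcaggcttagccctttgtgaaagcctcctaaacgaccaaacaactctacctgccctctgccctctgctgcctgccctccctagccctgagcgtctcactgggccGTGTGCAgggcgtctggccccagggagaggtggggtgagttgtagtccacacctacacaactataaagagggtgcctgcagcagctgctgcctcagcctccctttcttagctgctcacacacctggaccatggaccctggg
In these windows Mt1 held 3 matches, Mt2 held 4 and Mt4 held 1. With the starts of Mt1 and Mt2 in doubt, these numbers cannot be set against the size of the change. The same motif was present in 25.6% of all RefSeq promoters of that length and in 34.0% of those of tested genes, and a match is no evidence of a bound site.

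Other genes of metal and redox handling moved unequally. Of 37 genes in the metal response list, 23 were tested, 6 were higher and 2 lower (median 0.18), and of the 20 with a PRC1-WT mean of at least 1 RPKM, 5 were higher and 2 lower. Hmox1, the heme-degrading enzyme, had 6.97 and 6.75 RPKM in PRC1-CD, against 0.17 RPKM in both PRC1-WT libraries (2.75 ± 0.17, limma adjusted p = 0.000157). Gclc, the rate-limiting enzyme of glutathione synthesis, also rose (1.61 ± 0.19). Txnrd1, thioredoxin reductase, fell to 13.2 and 13.3 RPKM in PRC1-CD, against 20.4 and 21.9 RPKM in PRC1-WT (-0.63 ± 0.16, limma adjusted p = 0.0284), and the zinc exporter Slc30a2 was lower as well (-0.66). Mtf1 itself had 16.3 and 15.7 RPKM in PRC1-CD and 22.02 and 20 RPKM in PRC1-WT and was not called. With PRC1-CD replicate 2 left out, 4 genes of the list were higher and none lower of 22 tested. Of 15 tested glutathione transferases, 7 were higher and none lower, among them Gsto1, with 24.2 and 25.8 RPKM in PRC1-CD, against 0.7 and 3.01 RPKM in PRC1-WT (3.31 ± 0.37). When PRC1-CD replicate 2 was omitted that count was 2 of 15.

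**Figure D2:**
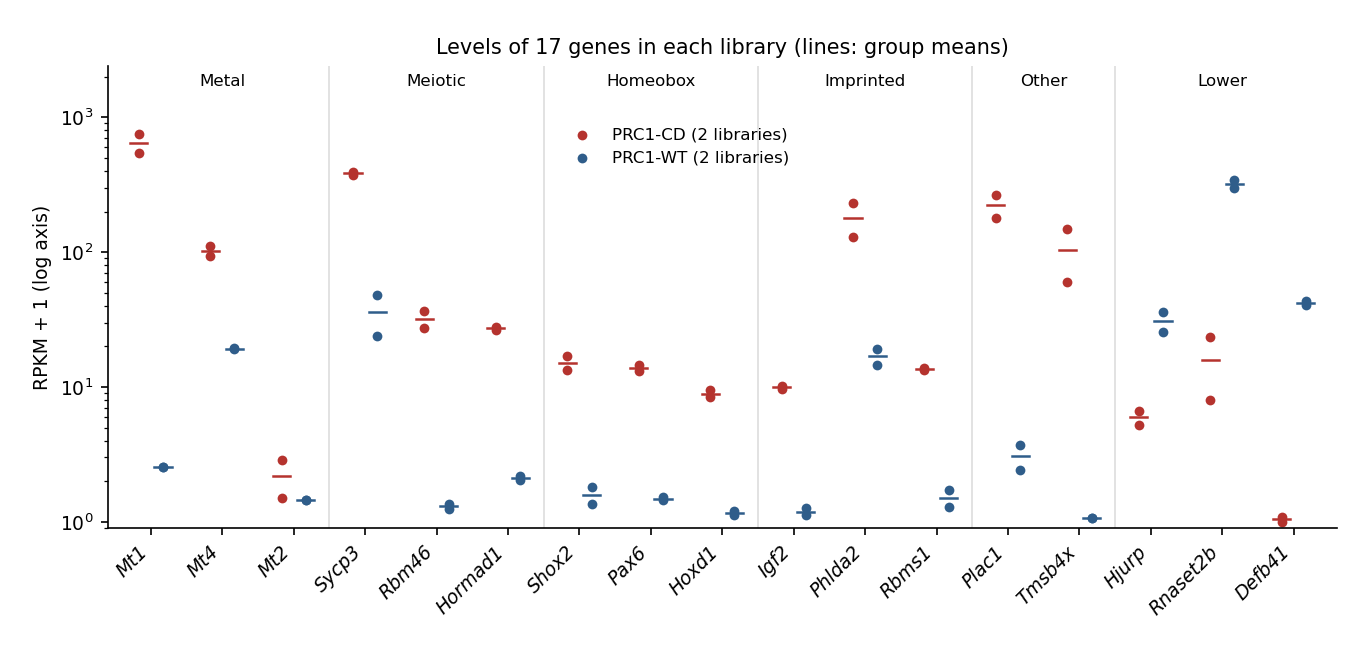
Levels of 17 genes as RPKM + 1 on a log axis, with 1 point per library and a line at each group mean, PRC1-CD (red) left of PRC1-WT (blue). Mt1, Sycp3, Phlda2 and Plac1 exceed 100 RPKM in PRC1-CD oocytes, Mt2 stays near the floor in both groups, and Hjurp, Rnaset2b and Defb41 show the reverse order.

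Few genes of the Polycomb machinery itself were called. Of 36 genes encoding PRC1 subunits and partners, 31 were tested, 3 were higher and none lower (median -0.04). Bcor, a partner of the PCGF1 variant, rose to 11.4 and 9.37 RPKM in PRC1-CD, against 1.73 and 1.13 RPKM in PRC1-WT (2.23 ± 0.21, limma adjusted p = 0.00057). Pcgf5 rose by 1.23 ± 0.19. Cbx8, a chromobox reader of H3K27me3, had 1.2 RPKM in both PRC1-CD libraries, against 0.2 and 0.17 RPKM in PRC1-WT (0.89 ± 0.15). Neither catalytic subunit was called, and the level of their RNA does not check the genotype, since a catalytically dead protein can come from RNA of normal level. None of 13 tested PRC2 genes and none of 14 H2A deubiquitinase genes and partners was called, with medians of -0.15 and -0.24. Under quantile normalization 5 of the 14 deubiquitinase genes were lower (median -0.41), none of the PRC2 genes was called, and the PRC1 genes gave 2 higher and 2 lower. Ezh2, the methyltransferase of PRC2, had 149 and 147 RPKM in PRC1-CD and 162 and 156 RPKM in PRC1-WT. In the MLL and COMPASS list of H3K4 methyltransferases, 1 of 17 tested genes was called, Kmt2a, with 1.24 and 1.3 RPKM in PRC1-CD, against 0.01 and 0.05 RPKM in PRC1-WT (1.14 ± 0.15), and quantile normalization gave 1 higher and 2 lower.

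Many developmental transcription factors, the classical targets of Polycomb, were called higher in PRC1-CD oocytes, a large part of them among genes that passed the filter through PRC1-CD alone. All 9 tested Hox genes of 39 were higher (median 1.61), but 8 of them had passed the filter through PRC1-CD alone. Hoxd13, which patterns the distal limb, had 7.79 and 7.38 RPKM in PRC1-CD, against 0.39 and 0.47 RPKM in PRC1-WT (2.59 ± 0.17, limma adjusted p = 0.000184). The 4 tested HoxD genes ranged from 2.15 to 2.94 on the log2 scale and the 3 tested HoxA genes from 1.15 to 1.61. Hoxa7 was the Hox gene already present in wild-type oocytes, with 23.1 and 40.4 RPKM in PRC1-CD, against 11.61 and 15.04 RPKM in PRC1-WT (1.15 ± 0.27, limma adjusted p = 0.0232). Without PRC1-CD replicate 2, the median change of the tested Hox genes was 1.45, and that of Hoxa7 was 0.76 on the log2 scale. With no filter on the level, Hoxa7 was not called.

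Homeobox genes outside the Hox clusters included many that were called higher. Of 119 such genes, 44 were tested, 31 were higher and none lower (median 1.11), and among the 23 with a PRC1-WT mean of at least 1 RPKM, 12 were higher and none lower (median 0.58). The NK and distal-less class had 12 of 17 tested genes higher, and the LIM and TALE class 9 of 17. Among members with a PRC1-WT mean of at least 1 RPKM, these counts were 6 of 10 and 3 of 10. Shox2, a limb and heart pacemaker factor, had 12.4 and 15.9 RPKM in PRC1-CD, against 0.81 and 0.36 RPKM in PRC1-WT (3.26 ± 0.22, limma adjusted p = 0.000198). Both PRC1-CD libraries lay above both PRC1-WT libraries. Barx1, a factor of stomach and jaw mesenchyme, rose by 3.22 ± 0.24. Meis2, a TALE factor expressed strongly in wild-type oocytes, had 245 and 281 RPKM in PRC1-CD and 251 and 235 RPKM in PRC1-WT and was not called. Under quantile normalization 24 of these homeobox genes were higher and 1 lower. With PRC1-CD replicate 2 left out, 20 of 39 were higher and 1 lower.

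The T-box, GATA and SOX families split by gene. Of 42 genes, 15 were tested, 9 were higher and 2 lower (median 1.01), and among the 8 with a PRC1-WT mean of at least 1 RPKM, 2 were higher and 2 lower. Sox2, a pluripotency and neural factor, had 3.28 and 5.16 RPKM in PRC1-CD, against 0.22 and 0.52 RPKM in PRC1-WT (1.91 ± 0.23). Eomes, a trophoblast and mesendoderm factor, rose by 1.62 ± 0.17. In the opposite direction, Gata3, a trophectoderm factor, had 6.64 and 4.97 RPKM in PRC1-CD, against 12.9 and 15.6 RPKM in PRC1-WT (-1.17 ± 0.20, limma adjusted p = 0.00636), and the hindlimb factor Tbx4 fell by 1.02 on the log2 scale. Genes under 1 RPKM in PRC1-WT, such as Sox2, were tested only through their PRC1-CD level and could not be called lower. Forkhead genes had 3 higher and none lower of 14 tested, with a median of -0.14, and 1 higher and 2 lower under quantile normalization. Of the 12 forkhead genes with a PRC1-WT mean of at least 1 RPKM, 1 was higher, against 9.78% over all genes at that limit. When PRC1-CD replicate 2 was omitted, 7 of 15 genes of the T-box, GATA and SOX list were higher and none lower, and no forkhead gene was called.

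Genes of the WNT, FGF and BMP pathways, which signal between cells, were called in both directions. Of 121 such genes, 42 were tested, 12 were higher and 4 lower, with a median of 0.03 that turned negative (-0.15) under quantile normalization. Of the 32 with a PRC1-WT mean of at least 1 RPKM, 3 were higher and 4 lower (median -0.17). Over all genes at this limit, 9.78% were higher and 6.39% lower. Whether this list or the axon guidance list below differed from these shares was not tested. The X-linked ligand Fgf16 had 9.57 and 5.99 RPKM in PRC1-CD, against 0.12 and 0.31 RPKM in PRC1-WT (2.83 ± 0.24, limma adjusted p = 0.000405). Dkk1, a secreted WNT inhibitor, fell to 3.9 and 3.78 RPKM in PRC1-CD, against 11 and 11.82 RPKM in PRC1-WT (-1.36 ± 0.17, limma adjusted p = 0.0018). Fgf8, an oocyte signal that acts on cumulus cells, fell to 92.3 and 85.1 RPKM in PRC1-CD, against 141 and 138 RPKM in PRC1-WT (-0.65 ± 0.15). Among 16 tested receptors, 2 were higher, including the BMP and activin receptor Acvr1, with 6.36 and 6.34 RPKM in PRC1-CD, against 2.21 and 1.41 RPKM in PRC1-WT (1.40 ± 0.20). Axon guidance genes had 10 higher and 1 lower of 35 tested, with a median of 0.15, and 7 higher and 7 lower under quantile normalization (median -0.13). Of the 28 with a PRC1-WT mean of at least 1 RPKM, 5 were higher and 1 lower (median -0.13). Efna1, an ephrin ligand, reached 67.2 and 88.8 RPKM in PRC1-CD, against 19.4 and 17.4 RPKM in PRC1-WT (2.01). Without PRC1-CD replicate 2, 12 signalling genes were higher and 1 lower of 44, and 5 axon guidance genes were higher of 35.

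**Figure D3:**
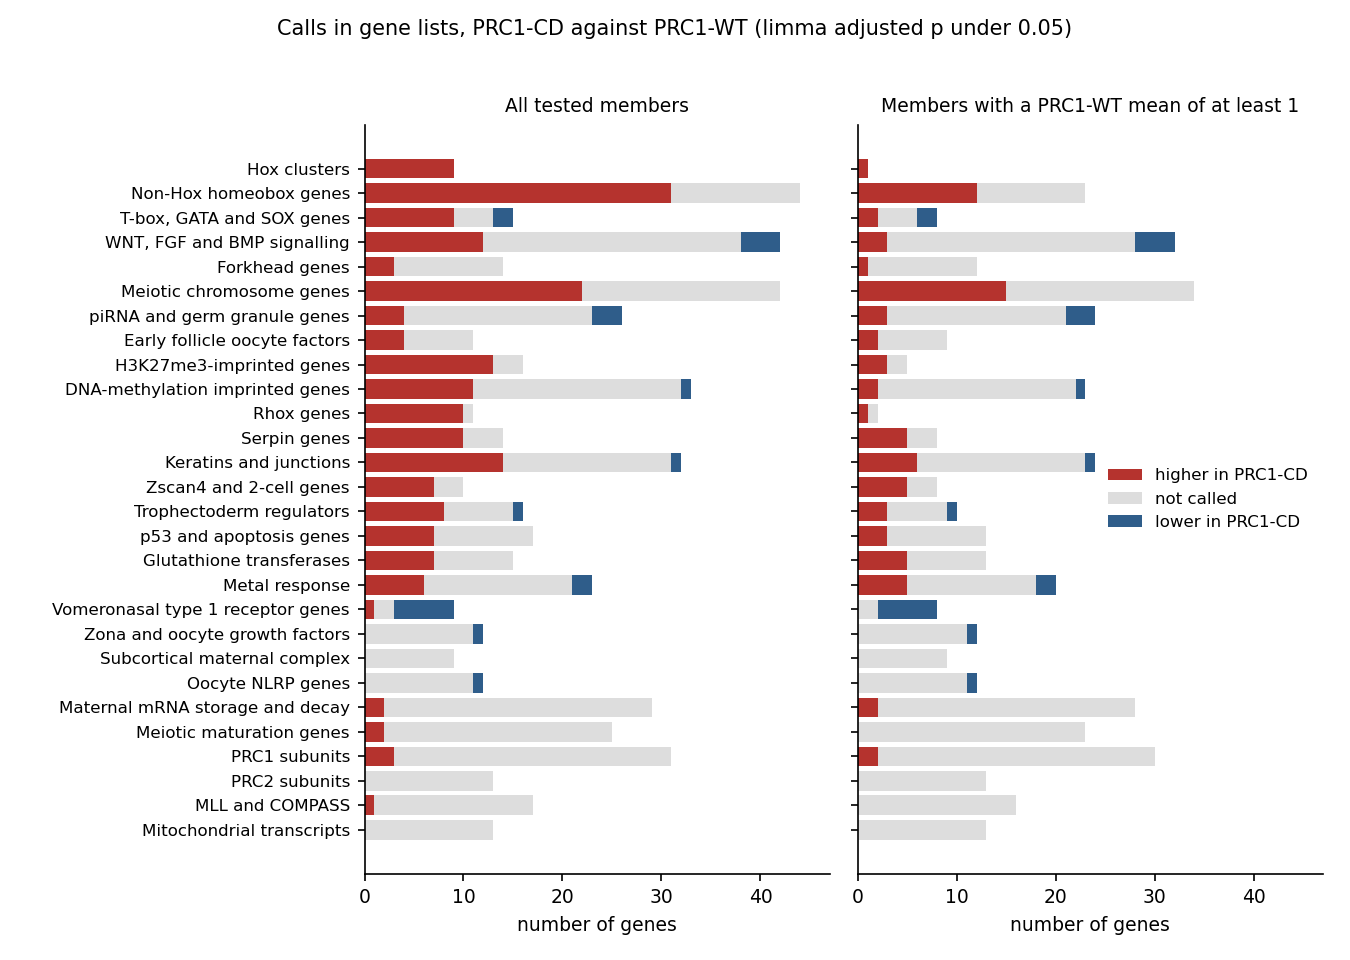
Numbers of genes called higher (red), not called (grey) and called lower (blue) in 28 gene lists, for all tested members (left) and for members with a PRC1-WT mean of at least 1 RPKM (right). Non-Hox homeobox genes have 31 of 44 higher on the left and 12 of 23 on the right, meiotic chromosome genes 22 of 42 and 15 of 34, and PRC2 subunits and the subcortical maternal complex have no call.

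Many genes of meiotic prophase were higher in PRC1-CD oocytes. Many of these genes act on chromosome pairing and recombination, which take place in the fetal ovary, long before an oocyte is full-grown. Of 54 listed genes, 42 were tested, 22 were higher and none lower (median 0.64), and of the 34 with a PRC1-WT mean of at least 1 RPKM, 15 were higher (median 0.46). The axis and synaptonemal complex, the protein scaffold that holds paired chromosomes together, had 8 of 11 tested genes higher. Of its 9 genes with a PRC1-WT mean of at least 1 RPKM, 6 were higher. Sycp3, a core protein of the axis, had 392 and 375 RPKM in PRC1-CD, against 23.1 and 46.7 RPKM in PRC1-WT (3.50 ± 0.30, limma adjusted p = 0.000422), although its transcript overlaps Chpt1 and strand was not recorded. Hormad1, which marks unsynapsed axes, had 25.7 and 26.7 RPKM in PRC1-CD, against 1.04 and 1.17 RPKM in PRC1-WT (3.69 ± 0.17, limma adjusted p = 9.17e-05). Tex12 had 278 and 220 RPKM in PRC1-CD, against 90.8 and 81.7 RPKM in PRC1-WT (1.51 ± 0.18). All 3 genes kept the groups apart, as did 63.4% of all tested genes, and this was a condition for naming a called gene. Syce2, another central element protein, was already abundant, at 682 and 832 RPKM in PRC1-CD and 746 and 861 RPKM in PRC1-WT, and was not called.

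The other meiotic roles held rises as well, and the difference between roles was not tested. Recombination had 7 of 17 tested genes higher, cohesin and its protectors 2 of 5, and meiotic entry 5 of 9. Among members with a PRC1-WT mean of at least 1 RPKM, the counts were 5 of 15, 2 of 4 and 2 of 6. Rbm46, an RNA-binding protein needed for entry into meiosis, had 26.5 and 35.4 RPKM in PRC1-CD, against 0.25 and 0.35 RPKM in PRC1-WT (4.61 ± 0.20, limma adjusted p = 9.17e-05). Its partner in meiotic RNA control, Meioc, had 12.98 and 11.53 RPKM in PRC1-CD, against 1.05 and 0.72 RPKM in PRC1-WT (2.82 ± 0.19). Meiob, which binds single-stranded DNA during repair of meiotic breaks, rose by 1.91 ± 0.18, and Smc1b, the meiotic cohesin subunit, by 1.33 ± 0.17. Dazl, the germ cell RNA-binding protein, had 209 and 159 RPKM in PRC1-CD and 278 and 229 RPKM in PRC1-WT and was not called. With PRC1-CD replicate 2 left out, 15 of 41 meiotic genes were higher and none lower, and under quantile normalization 17 were higher and 1 lower.

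The promoters of Rbm46, Hormad1 and Sycp3 are shown because they hold CACGTG, the E-box that MGA and MAX recognise. Windows are as above, in RefSeq GRCm38.p6: Rbm46 at chr3:82876434-82876733 on the minus strand, Hormad1 at chr3:95559427-95559726 on the plus strand and Sycp3 at chr10:88459337-88459636 on the plus strand. Capitals mark CACGTG, which reads alike on both strands.
Rbm46: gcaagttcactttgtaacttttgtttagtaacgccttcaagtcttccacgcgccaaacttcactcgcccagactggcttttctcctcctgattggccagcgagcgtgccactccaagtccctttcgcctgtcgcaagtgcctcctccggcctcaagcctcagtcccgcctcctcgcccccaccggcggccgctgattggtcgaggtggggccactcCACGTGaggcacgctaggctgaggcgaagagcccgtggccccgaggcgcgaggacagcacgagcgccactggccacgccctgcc
Hormad1: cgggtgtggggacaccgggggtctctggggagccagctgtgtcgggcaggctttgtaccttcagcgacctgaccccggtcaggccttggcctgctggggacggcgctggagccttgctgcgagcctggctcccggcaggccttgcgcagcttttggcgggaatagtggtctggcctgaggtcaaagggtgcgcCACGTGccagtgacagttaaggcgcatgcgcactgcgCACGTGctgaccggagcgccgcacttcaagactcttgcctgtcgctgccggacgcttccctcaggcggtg
Sycp3: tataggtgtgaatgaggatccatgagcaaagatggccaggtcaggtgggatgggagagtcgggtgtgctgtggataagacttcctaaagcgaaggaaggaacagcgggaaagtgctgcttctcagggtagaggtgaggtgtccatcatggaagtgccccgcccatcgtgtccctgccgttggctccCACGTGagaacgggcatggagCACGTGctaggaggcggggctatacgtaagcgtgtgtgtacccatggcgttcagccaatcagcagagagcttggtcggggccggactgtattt
CACGTG was present in 7 of the 16 promoters found for meiotic genes called higher and in 2 of the 16 found for those not called. It was present in 7.24% of all RefSeq promoters, 9.92% of those of tested genes and 10.8% of those of all genes called higher. GCGGGAA, a core of E2F sites searched on both strands, was in 7 of 16 promoters of meiotic genes called higher and in 4 of 16 not called. It was in 4.66% of all promoters and 7.79% of those of tested genes. Among tested genes it was in 5.57% of promoters of those called higher and 8.4% of those not called. Hormad1 and Sycp3 held both motifs and Rbm46 the E-box alone. These counts describe letters, and binding was not measured here.

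Promoter composition also differed between call classes. A promoter was counted as CpG-rich where the observed over expected CpG ratio was at least 0.6 and the GC content at least 50%. CpG-rich promoters made up 44.1% of the 1688 promoters of genes called higher, 46.5% of the 533 of genes called lower and 65.8% of the 7737 of genes not called. Among genes with a PRC1-WT mean of at least 1 RPKM, the share was 47.9% of those called higher and 66.7% of those not called. Genes lower by at least 2-fold had the smallest share, 26.9% of 145. Among the homeobox genes outside the Hox clusters, 14 of 21 promoters of genes called higher were CpG-rich (66.7%) and 6 of 10 of genes not called (60.0%). Tested genes with a promoter in the table numbered 9958 of 13376.

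Genes of the primordial and growing oocyte were partly higher. Of 11 tested oocyte transcription factors and regulators of the early follicle, 4 were higher and none lower (median 0.21), 2 of them among the 9 with a PRC1-WT mean of at least 1 RPKM. Sohlh1, which drives the primordial follicle programme, had 8.57 and 9.19 RPKM in PRC1-CD, against 0.14 and 0.06 RPKM in PRC1-WT (3.17 ± 0.17, limma adjusted p = 0.000126). Its partner Sohlh2 had 14.7 and 19.4 RPKM in PRC1-CD, against 2.77 and 0.8 RPKM in PRC1-WT (2.78 ± 0.34), and Zglp1, a factor of oogenic fate, rose by 1.38 ± 0.26. Nobox, which acts in the same follicle stages and stays on, had 231 and 214 RPKM in PRC1-CD and 221 and 217 RPKM in PRC1-WT and was not called. Genes of the piRNA pathway and germ granules split, with 4 higher and 3 lower of 26 tested. Their median was 0.05, and negative (-0.12) under quantile normalization. Of the 24 with a PRC1-WT mean of at least 1 RPKM, 3 were higher and 3 lower. Over all genes at that limit, the shares were 9.78% and 6.39%. Mael, a piRNA factor, had 239 and 247 RPKM in PRC1-CD, against 69.0 and 65.7 RPKM in PRC1-WT (1.83 ± 0.15), whereas the tudor protein gene Tdrd12 had 156 and 190 RPKM in PRC1-CD, against 286 and 313 RPKM in PRC1-WT (-0.79 ± 0.17, limma adjusted p = 0.0147). When PRC1-CD replicate 2 was omitted, 2 of 11 early follicle genes and 1 of 26 piRNA genes were higher, and none was lower.

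The programme of the full-grown oocyte gave few calls. Zona and secreted oocyte factors had 1 call in 12, the fall of Fgf8, the subcortical maternal complex none in 9, maternal mRNA storage and decay genes 2 rises in 29, and meiotic maturation genes 2 rises in 25. Zp3, a zona glycoprotein, had 2055 and 1896 RPKM in PRC1-CD and 1409 and 2514 RPKM in PRC1-WT, and the PRC1-CD values lay within the PRC1-WT range. Among 12 tested oocyte NLRP genes, Nlrp4e alone was called, with 20.3 and 12.9 RPKM in PRC1-CD, against 43.3 and 47.3 RPKM in PRC1-WT (-1.43 ± 0.22, limma adjusted p = 0.00443). The maintenance DNA methyltransferase Dnmt1 had 177 and 181 RPKM in PRC1-CD, against 262 and 296 RPKM in PRC1-WT (-0.64 ± 0.15, limma adjusted p = 0.0239). Dnmt3a, the de novo methyltransferase of oocytes, fell by 0.65 on the log2 scale. These were the 2 calls among 14 tested DNA methylation genes, and neither passed without PRC1-CD replicate 2. Cytosolic ribosomal protein genes (2 higher, 1 lower of 84), mitochondrial ribosomal protein genes (2 higher, 1 lower of 76), proteasome subunits (4 higher of 37) and mitochondrially encoded genes (none of 13) were nearly all uncalled. Nuclear genes of the respiratory chain had 3 rises in 82, among them the testis isoform Cox8c, with 66.4 and 73.4 RPKM in PRC1-CD, against 6.11 and 8.47 RPKM in PRC1-WT (3.11 ± 0.19).

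Hjurp, the chaperone that loads the centromeric histone CENP-A, was the fall among genes of centromeric histone loading. It had 5.69 and 4.24 RPKM in PRC1-CD, against 35.1 and 24.7 RPKM in PRC1-WT (-2.36 ± 0.23, limma adjusted p = 0.000653), and its locus overlaps Mroh2a. Cenpa rose slightly, with 92.1 and 97.5 RPKM in PRC1-CD, against 68.6 and 61.5 RPKM in PRC1-WT (0.54 ± 0.15, limma adjusted p = 0.0439). Hjurp RNA was lower, then, and the RNA of its cargo was higher. Of 16 tested centromeric loading genes, 2 were higher and 1 lower, and without PRC1-CD replicate 2 only 1 fall was called. Among 6 tested CDK inhibitors 2 were higher, Cdkn1a and the imprinted Cdkn1c. Cdkn1c had 17.8 and 24.7 RPKM in PRC1-CD, against 4.48 and 4.11 RPKM in PRC1-WT (2.05 ± 0.20).

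Imprinted genes of both kinds held rises. Of 32 genes whose maternal allele is silenced in embryos by H3K27me3, 16 were tested, 13 were higher and none lower (median 1.31), and among the 5 with a PRC1-WT mean of at least 1 RPKM, 3 were higher. Rbms1, an RNA-binding protein gene, had 12.8 and 12.4 RPKM in PRC1-CD, against 0.72 and 0.28 RPKM in PRC1-WT (3.19 ± 0.21, limma adjusted p = 0.000165). Clic6 had 4.35 and 4.18 RPKM in PRC1-CD, against 0 and 0.04 RPKM in PRC1-WT (2.37 ± 0.16). Tox3 was already on in the wild type and had 38.2 and 44.5 RPKM in PRC1-CD, against 18.5 and 16.4 RPKM in PRC1-WT (1.2 ± 0.17). Without PRC1-CD replicate 2, 11 of 15 were higher.

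Genes imprinted through DNA methylation divided by region. In distal chromosome 7, which holds the clusters around Igf2 and Cdkn1c, 8 of 12 tested genes were higher and none lower (median 1.37), and 2 of the 6 with a PRC1-WT mean of at least 1 RPKM were. Elsewhere 3 of 21 were higher and 1 lower (median 0.04), and the difference between regions was not tested. Phlda2, a brake on placental growth, had 128 and 231 RPKM in PRC1-CD, against 13.5 and 18.3 RPKM in PRC1-WT (3.37 ± 0.29, limma adjusted p = 0.000428). Igf2, a fetal growth factor, had 9.09 and 8.74 RPKM in PRC1-CD, against 0.26 and 0.12 RPKM in PRC1-WT (3.06 ± 0.18). At either gene both PRC1-CD libraries lay above both PRC1-WT libraries. Among genes elsewhere, Rasgrf1, an exchange factor for RAS, had 8.93 and 11.04 RPKM in PRC1-CD, against 0.17 and 0.26 RPKM in PRC1-WT (3.17 ± 0.19). Over all 33 tested genes 11 were higher and 1 lower, with a median of 0.33 that fell to -0.01 under quantile normalization. With PRC1-CD replicate 2 left out, 9 of 34 were higher.

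Genes of early embryo lineages also differed. Plac1, an X-linked placental gene, had 177 and 265 RPKM in PRC1-CD, against 1.43 and 2.72 RPKM in PRC1-WT (6.18 ± 0.27, limma adjusted p = 9.17e-05), and its locus overlaps Gm35988. Together with Krt8, Ascl2, Tfap2a and others, 8 of 16 tested trophectoderm regulators were higher and 1, Gata3, was lower, with 3 higher of the 10 that reached 1 RPKM in PRC1-WT. Krt8, an epithelial keratin, had 44.2 and 35.5 RPKM in PRC1-CD, against 2.02 and 0.84 RPKM in PRC1-WT (4.11 ± 0.26). Both libraries of each group lay well apart from the other group. Pluripotency regulators split (4 higher and 2 lower of 13, median 0.10, and -0.07 under quantile normalization). Of the 10 with a PRC1-WT mean of at least 1 RPKM, 1 was higher and 2 lower (median -0.07). Klf4 had 12.7 and 14.1 RPKM in PRC1-CD, against 2.24 and 1.59 RPKM in PRC1-WT (2.31 ± 0.19). Of 6 tested primitive endoderm genes, 4 were higher, as were 2 of the 4 with a PRC1-WT mean of at least 1 RPKM. When PRC1-CD replicate 2 was omitted, 7 of 14 trophectoderm, 4 of 13 pluripotency and 2 of 6 primitive endoderm genes were higher.

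Zscan4 genes, which mark the burst of transcription at the 2-cell stage, were higher in PRC1-CD oocytes. Zscan4c had 22.8 and 31.5 RPKM in PRC1-CD, against 3.98 and 3.47 RPKM in PRC1-WT (2.56 ± 0.21, limma adjusted p = 0.000358). Zscan4f rose by 1.70 ± 0.18 and Zscan4d by 1.65 ± 0.20. These genes are near-identical copies, so reads may have been divided between them. In their list 7 of 10 tested genes were higher and none lower, and 5 of 8 with a PRC1-WT mean of at least 1 RPKM. Of 6 tested Obox genes, Obox6 was higher and Obox7 lower. Without PRC1-CD replicate 2, 4 of 10 genes of the Zscan4 and 2-cell list were higher. The 14 markers of embryos from the 2-cell to the morula stage summed to 426 and 440 RPKM in PRC1-CD, against 530 and 542 RPKM in PRC1-WT. Most of this sum came from Rpl39l, with 260 and 261 RPKM in PRC1-CD and 316 and 367 RPKM in PRC1-WT, which was not called. Of the same markers Zscan4c, Zscan4d, Sox2 and Tead4 were higher, and Klf17 and Gata3 lower.

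Cell surface, junction and cytoskeletal genes held several of the largest rises. Tmsb4x, which encodes the actin-sequestering thymosin beta 4, had 147 and 58.9 RPKM in PRC1-CD, against 0.07 and 0.06 RPKM in PRC1-WT (6.47 ± 0.38, limma adjusted p = 0.00015). Ly6e, a GPI-anchored protein, had 133 and 151 RPKM in PRC1-CD, against 21.1 and 30.1 RPKM in PRC1-WT (2.45 ± 0.20). Both genes kept the groups apart, though the PRC1-CD libraries differed from each other for Tmsb4x. In the surface and thymosin list 9 of 21 tested genes were higher and none lower, and in the list of keratins and junctions 14 were higher and 1 lower of 32. Among members with a PRC1-WT mean of at least 1 RPKM, 3 of 15 and 6 of 24 were higher. Epcam, an epithelial adhesion molecule, had 9.13 and 39.3 RPKM in PRC1-CD, against 1.13 and 1.18 RPKM in PRC1-WT (3.23 ± 0.55, limma adjusted p = 0.00626). Gjb2, a gap junction connexin, had 24.5 and 27.6 RPKM in PRC1-CD, against 2.59 and 1.85 RPKM in PRC1-WT (3.08 ± 0.19). The tight junction gene Cldn15 fell to 3.96 and 2.41 RPKM in PRC1-CD, against 19.6 and 15.8 RPKM in PRC1-WT (-2.18 ± 0.23). With PRC1-CD replicate 2 left out these lists had 8 of 21 higher, and 11 higher and 1 lower of 31.

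Markers of follicle cells moved in the same direction and are given beside these genes. The 17 granulosa and cumulus markers summed to 70.1 and 63.6 RPKM in PRC1-CD, against 33.9 and 37.6 RPKM in PRC1-WT, with 4 higher (Fshr, Cyp11a1, Inha and Nr5a2) and 11 not tested. Foxl2 had 0.1 and 0.03 RPKM in PRC1-CD and 0 in PRC1-WT, Amh was 0 in PRC1-CD and 0 and 0.05 RPKM in PRC1-WT, and Ptx3 was at 0 in all libraries. Has2 had 1.15 and 0.81 RPKM in PRC1-CD, against 0.31 and 0.23 RPKM in PRC1-WT, and the untested Vim and Gja1, all under 1 RPKM, were also higher in both PRC1-CD libraries than in either PRC1-WT library. Fshr, the receptor for follicle-stimulating hormone, had 18.57 and 12.02 RPKM in PRC1-CD, against 0.6 and 0.5 RPKM in PRC1-WT (3.37 ± 0.23, limma adjusted p = 0.000204). Cyp19a1, the aromatase of granulosa cells, had 15.8 and 18.6 RPKM in PRC1-CD and 16.3 and 18.1 RPKM in PRC1-WT, with no difference beyond the spread. Of 9 tested steroid and gonadotropin genes, 4 were higher and none lower, and 2 without PRC1-CD replicate 2. The 10 stromal markers summed to 9.43 and 8.12 RPKM in PRC1-CD, against 1.97 and 1.92 RPKM in PRC1-WT, most of it from Dcn, which rose to 5.91 and 4.92 RPKM in PRC1-CD, against 0.97 and 1.03 RPKM in PRC1-WT (1.68 ± 0.18). The part of follicle cell RNA in these results was not tested.

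Stress, death and immune genes added smaller groups. Of 17 tested p53 targets and death genes, 7 were higher and none lower (median 0.57). Fas, a death receptor, had 13.9 and 8.34 RPKM in PRC1-CD, against 0.83 and 0.6 RPKM in PRC1-WT (2.78 ± 0.25, limma adjusted p = 0.000529). The integrated stress response had 4 of 16 higher, including Asns, asparagine synthetase (2.18 ± 0.18), and glycolysis 5 higher and 1 lower of 14, including Gapdh, with 59.4 and 80.2 RPKM in PRC1-CD, against 16.8 and 19.5 RPKM in PRC1-WT (1.88 ± 0.20). Among 14 tested interferon and chemokine genes, 8 were higher and none lower. Ccl2, a chemokine, had 264 and 280 RPKM in PRC1-CD, against 17.8 and 12.9 RPKM in PRC1-WT (4.08 ± 0.19, limma adjusted p = 9.17e-05). The class I antigen gene H2-K1 rose to 15.5 and 16.2 RPKM in PRC1-CD, against 5.61 and 5.63 RPKM in PRC1-WT (1.34 ± 0.17). Serpins, a family of protease inhibitors, had 10 of 14 tested genes higher and none lower, Serpinb1a at the head (2.86 ± 0.18). Among members with a PRC1-WT mean of at least 1 RPKM, 3 of 13 p53 and death genes, 1 of 13 stress response genes, 5 of 10 interferon genes and 5 of 8 serpins were higher. Of 12 such glycolysis genes, 3 were higher and 1 lower. Over all genes, 17.3% of those tested and 9.78% of those with a PRC1-WT mean of at least 1 RPKM were higher. The stress response did not exceed the latter share. When PRC1-CD replicate 2 was omitted the higher counts were 4 of 17 for p53, 3 of 15 for the stress response, 3 of 14 for glycolysis, 4 of 13 for interferon and 6 of 14 for serpins.

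A small set of genes was on in PRC1-CD oocytes and nearly absent from the wild type. With both PRC1-WT libraries at 0.1 RPKM or less and both PRC1-CD libraries at 5 RPKM or more, 20 genes qualified, 17 of them protein-coding, against 1 gene the other way round. Beside Tmsb4x they included the adhesion gene Amigo2, with 19.9 and 15.3 RPKM in PRC1-CD, against 0.09 and 0.01 RPKM in PRC1-WT (4.14 ± 0.20), which overlaps Pced1b. Myl7, the atrial myosin light chain, had 10.2 and 11.9 RPKM in PRC1-CD and Lypd4 had 9.16 and 9.02 RPKM, and both were listed at 0 in PRC1-WT. The X-linked Mageb4 and Rhox2h were also among the 20. The selection used the values themselves, so these are given as a description.

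Beside Mt1, genes already abundant in PRC1-WT held several of the largest gains in RPKM. Ppia, the peptidyl-prolyl isomerase cyclophilin A, had 979 and 1147 RPKM in PRC1-CD, against 216 and 447 RPKM in PRC1-WT (1.76 ± 0.32, limma adjusted p = 0.00787). Tctex1d1, a dynein light chain relative, had 547 and 604 RPKM in PRC1-CD, against 118 and 126 RPKM in PRC1-WT (2.22 ± 0.15). The chaperone Hspa8 rose by 0.80 ± 0.17 and the peroxidase Prdx1 by 0.74 ± 0.21. Reads of Ppia, Prdx1 and Hspa8 can also be drawn to processed copies of these genes. Among the largest losses, Gm13103 had 319 and 335 RPKM in PRC1-CD, against 686 and 726 RPKM in PRC1-WT (-1.11 ± 0.15), and Tm9sf2, an endosomal membrane protein, 343 and 455 RPKM in PRC1-CD, against 690 and 634 RPKM in PRC1-WT (-0.74 ± 0.19). Khdc1b, of an oocyte RNA-binding family, fell by 0.60 on the log2 scale and Rpp21, a subunit of ribonuclease P, by 0.93.

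The X chromosome had the highest share of rises. Of 469 tested X-linked genes, 141 were higher (30.1%) and 17 lower, with a median of 0.24, while the share higher on single autosomes ran from 11.4% on chromosome 5 to 21.2% on chromosome 6. Among genes with a PRC1-WT mean of at least 1 RPKM, 67 of 373 X-linked genes were higher (18.0%) and 17 lower, and autosomes ranged from 6.41% on chromosome 5 to 12.3% on chromosome 3. Under quantile normalization these X-linked genes had 55 rises and 33 falls and a median of 0.01. The autosomal genes at the same limit then had 857 rises and 1430 falls of 11076, with a median of -0.14. Without PRC1-CD replicate 2, 91 of 457 X-linked genes were higher and 2 lower, against 1099 and 120 of 12469 autosomal genes. Rhox genes, an X-linked homeobox cluster of reproductive tissues, had 10 of 11 tested genes higher (median 2.01), of which 2 had a PRC1-WT mean of at least 1 RPKM and 1 of those was higher. Rhox2a had 11.6 and 17.6 RPKM in PRC1-CD, against 0.99 and 0.29 RPKM in PRC1-WT (3.26 ± 0.28), and the Rhox2 copies are alike enough that reads may be shared. Xlr, of the X-linked lymphocyte-regulated family, had 27.3 and 37.1 RPKM in PRC1-CD, against 1.5 and 1.07 RPKM in PRC1-WT (3.85 ± 0.21). Tceal8, an X-linked transcription elongation factor relative, had 66.3 and 57.6 RPKM in PRC1-CD, against 1.4 and 0.9 RPKM in PRC1-WT (4.88 ± 0.19).

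**Figure D4:**
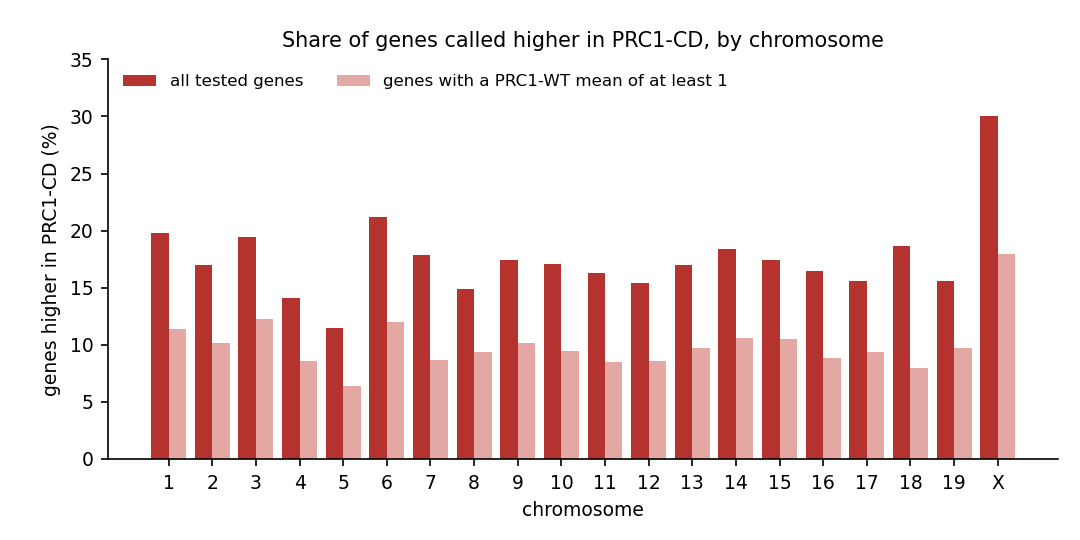
Bars give the percentage of tested genes called higher in PRC1-CD on each chromosome, for all tested genes (dark) and for genes with a PRC1-WT mean of at least 1 RPKM (light). The X chromosome stands at 30.1% and 18.0%, above every autosome in both.

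The deepest falls came from a few genes, several of them in tandem families. Defb41, a beta-defensin, had 0 and 0.09 RPKM in PRC1-CD, against 42.1 and 39.7 RPKM in PRC1-WT (-5.33 ± 0.17, limma adjusted p = 5.25e-05). Rnaset2b, a lysosomal ribonuclease gene with a near-identical neighbouring copy, had 7.05 and 22.5 RPKM in PRC1-CD, against 300 and 339 RPKM in PRC1-WT (-4.54 ± 0.44, limma adjusted p = 0.000653). Vmn1r132, a vomeronasal receptor gene, had 0.08 and 0.35 RPKM in PRC1-CD, against 18.8 and 18.6 RPKM in PRC1-WT (-4.03 ± 0.19). Every one of these genes was clearly expressed in both PRC1-WT libraries and close to absent, or much reduced, in both PRC1-CD libraries. At Rnaset2b, however, the wild-type oocytes of the DKO set had 19.5, 8.73 and 12.8 RPKM, near the PRC1-CD values. PRC1-WT thus stood apart from that other wild type at this gene, and the cause was not tested. Of 9 tested vomeronasal type 1 receptor genes among 207, 6 were lower and 1 higher, and 3 of the lower ones (Vmn1r112, Vmn1r139 and Vmn1r157) carried identical values in every library and therefore count as 1 measurement. With PRC1-CD replicate 2 left out, 4 of 9 were lower. Olfactory receptors had 10 higher and 2 lower of 34 tested (4 and 7 under quantile normalization), and small nucleolar RNAs 2 lower of 17. Of the 23 olfactory receptors with a PRC1-WT mean of at least 1 RPKM, 2 were higher and 2 lower. In the other large families, 30 were higher and 11 lower of 235 tested Zfp zinc finger genes, 32 and 16 of 166 solute carriers, and 299 and 171 of 1497 genes known by Gm numbers. Quantile normalization turned these balances to 21 higher and 32 lower Zfp genes, 17 and 25 solute carriers, and 193 and 301 Gm genes. With a PRC1-WT mean of at least 1 RPKM, 15 were higher and 11 lower of 212 Zfp genes. The counts were 13 and 16 of 142 solute carriers, and 133 and 171 of 1227 Gm genes. Over all tested genes 17.3% were higher and 5.61% lower, and at this limit 9.78% and 6.39%. Whether these families differed from those shares was not tested. Protocadherins and defensins each had 3 higher and 1 lower of 6, collagens 1 of each of 8 (0 and 3 under quantile normalization), and type 2 vomeronasal receptors 1 of each of 3. At a PRC1-WT mean of at least 1 RPKM, no protocadherin was higher and 1 was lower of 3, and defensins had 1 of each of 4. Collagens then had 1 lower of 7 and type 2 vomeronasal receptors 1 lower of 2, with none higher.

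Whether the catalytic mutant and the DKO acted alike was asked in a joint fit over both tables, with the effect of PRC1-CD against PRC1-WT minus the effect of DKO against its own wild type. The tables were normalized separately and the 2 sets of libraries share no sample. A difference between mutants therefore cannot be told apart from one between sets at any gene, including genes whose wild types agree. Of 13629 tested genes, 1492 differed (10.9%), with 1121 more positive (8.23%) and 371 more negative (2.72%) in PRC1-CD. Over the same 13629 genes, 2236 were called higher (16.4%) and 1387 lower (10.2%) in DKO. Of the 2309 genes higher in PRC1-CD, 1149 were also called higher and 87 lower in DKO, and the PRC1-CD effect was more positive at 916 and more negative at 10. Their median change was 1.14 in PRC1-CD and 0.43 in DKO, where the first value follows from the selection. Of the 750 lower genes, 365 were also lower and 14 higher in DKO, and the effect was more negative in PRC1-CD at 180. Both sets of genes were chosen for their PRC1-CD effect, which favours a difference in that direction, so these counts are a description.

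At Mt1 and Rbm46 the difference of effects did not pass the test. Mt1 had 640, 716 and 686 RPKM in DKO oocytes, against 2.83, 2.68 and 2.83 RPKM in their wild type, and the difference of effects was 0.47 ± 0.17 (limma adjusted p = 0.112). Rbm46 had a difference of -0.06 ± 0.23 (limma adjusted p = 0.907). Mt4, in contrast, had 23.5, 22.6 and 33.5 RPKM in DKO, against 17.3, 25.9 and 23.2 RPKM in wild type, and its effect was larger in PRC1-CD by 2.15 ± 0.27 (limma adjusted p = 0.000675). Sycp3 and Hormad1 rose in both mutants and more in PRC1-CD, by 1.41 ± 0.32 and 1.53 ± 0.39. Pax6, the eye and neural factor, had a difference of 2.33 ± 0.29 that passed the test. The Zscan4 genes went opposite ways: Zscan4c had 0.37, 0.5 and 0.38 RPKM in DKO, against 1.91, 2.75 and 2.66 RPKM in wild type, and the difference of effects was 3.83 ± 0.23 (limma adjusted p = 1.26e-05). These genes were chosen after their values were seen.

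Among lists, the difference was called more positive in PRC1-CD at 15 and more negative at 3 of 45 non-Hox homeobox genes, at 7 and 0 of 42 meiotic genes, at 6 and 0 of 16 H3K27me3-imprinted genes, at 7 and 0 of 21 surface and thymosin genes and at 5 and 0 of 10 Zscan4 and 2-cell genes. Median effects were 1.08 in PRC1-CD and 0.37 in DKO for the homeobox list, and 0.64 and 0.29 for the meiotic list. Against PRC1-WT alone, 21 of 44 homeobox, 11 of 16 H3K27me3-imprinted and 8 of 42 meiotic genes had passed the filter through PRC1-CD only. Such entry favours a larger effect in PRC1-CD, so these counts and medians are a description. For p53 and death genes the medians were 0.57 in PRC1-CD and 0.66 in DKO, with 3 more positive and 1 more negative of 17. Fas, however, had 1.06, 1.44 and 1.64 RPKM in DKO, against 1.19, 0.56 and 0.97 RPKM in wild type, and its effect was larger in PRC1-CD by 2.46 ± 0.30 (limma adjusted p = 0.000633).

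**Figure D5:**
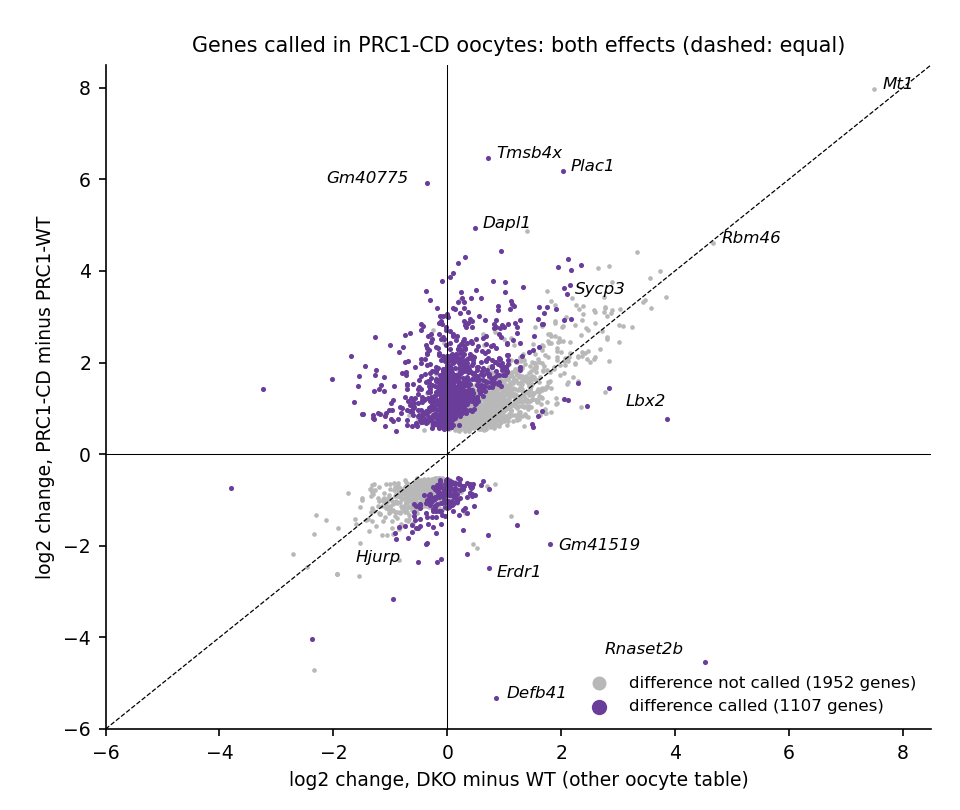
The log2 change in PRC1-CD (y axis) against that in DKO (x axis) for the 3059 genes called in PRC1-CD, with the 1107 genes whose effects differed in purple and the other 1952 in grey. Mt1 and Rbm46 lie near the dashed line of equal effects, Tmsb4x, Plac1 and Dapl1 far above it, and Rnaset2b far to the lower right.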

How the data were processed

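RNA was amplified with SMART-Seq v4 and libraries were made with Nextera XT, per the labels' protocols, which leaves no record of strand. The authors deposited RPKM values per gene, 1 column per library. The submitters' processing notes name Trim Galore 0.6.4, STAR 2.7.3 and 2.7.6, RSEM 1.3.1, featureCounts 1.6.0 and the builds mm10 and GRCm38, with no role given. RPKM values carry no depth, so no counting interval is given. The table's 35842 rows include 27 with date-like symbols, which were dropped, leaving 35815. Genes with a mean of at least 1 RPKM in either group were tested on log2(RPKM + 1), a scale that understates changes of low genes, with limma 3.58.1 in R 4.3.3 (trended moderated variance, two-sided, Benjamini-Hochberg over all tested genes, adjusted p under 0.05). A ± after a log2 change is its standard error, with n = 2 libraries a group. The scripts were tested on simulated data.

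The difference from DKO was fitted jointly over 13629 genes of both oocyte tables. Genes at 0 in a group get no fold. The genes tested, the 38 gene lists and the 17 symbol families were chosen with earlier results of these data known, so their counts are descriptions, read beside the counts over all genes. Genes were named by rule: called genes whose groups do not overlap, with the 15 largest rises, the 12 largest falls, the 10 largest gains and losses in RPKM, the 15 highest that were on in 1 group, up to 6 called, 2 opposite and 3 uncalled members per list, and 8 differences a side. Gene positions, overlaps and promoters are from RefSeq GRCm38.p6, where 13037 tested genes had an annotation by symbol or synonym, and 31 tested genes had values identical to another's in all 4 libraries. Alternatives were another pseudocount (0.1), no filter, a mean of at least 5 RPKM, median-ratio and quantile scaling, a replicate block, no variance trend and leaving out each library. Leaving out DKO and wild-type oocyte libraries, and recounting the X chromosome, were added after seeing the data. Morula and triple-knockout samples were not used here.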

Additional observations from a re-analysis of the deposited data

Results flagged for a closer look

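At 16 genes, chosen as the 8 most positive and 8 most negative of 1492 called differences, the effect in PRC1-CD differed from that in DKO by the test of the difference itself (limma, adjusted p under 0.05). Levels are from tables normalized separately, and causes were not tested.

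Pcgf1 differed by 6.61 on the log2 scale, and it is deleted in DKO, with 1411 and 1598 RPKM in PRC1-CD against 1350 and 1234 RPKM in PRC1-WT, and 10.6, 12.9 and 13.4 RPKM in DKO against 1094, 1153 and 1077 RPKM in its wild type. Lbx2, a neighbour of Pcgf1 on chromosome 6, differed by -3.10, with 10.6 and 12.6 RPKM in PRC1-CD against 5.81 and 6.99 RPKM in PRC1-WT, and 99.2, 74.1 and 77.2 RPKM in DKO against 4.63, 3.88 and 5.9 RPKM in wild type.

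Among effects more positive in PRC1-CD, Gm40775 differed by 6.27, Tmsb4x by 5.75, Dapl1 by 4.45, 2610016A17Rik by 4.0 and 1600027J07Rik by 3.97, and none of these 5 was called in DKO. Plac1 differed by 4.16 and rose in DKO as well (2.02 ± 0.23). Iqcf1 differed by 4.66 (limma adjusted p = 0.038). It was called higher in PRC1-CD against PRC1-WT (1.43 ± 0.18, limma adjusted p = 0.00166) but not in the joint fit with DKO (limma adjusted p = 0.271), with 87.2 and 108 RPKM in PRC1-CD, 33.0 and 38.0 RPKM in PRC1-WT, 10.8, 0 and 0 RPKM in DKO and 34.2, 15.8 and 15.4 RPKM in wild type.

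Among effects more negative in PRC1-CD, Rnaset2b differed by -9.07: PRC1-CD (7.05 and 22.5 RPKM) stood near the wild type of the other table (19.5, 8.73 and 12.8 RPKM), and PRC1-WT (300 and 339 RPKM) near DKO (326, 329 and 311 RPKM). The 2 sets of wild-type oocytes thus stood far apart at this gene. Gm41519 (-3.77) showed the same arrangement, with 0 and 0.16 RPKM in PRC1-CD, 2.09 and 4.69 RPKM in PRC1-WT, 2.87, 3.35 and 2.6 RPKM in DKO and 0.09, 0 and 0.29 RPKM in wild type. Snora43, inside Snhg7, differed by -2.82 and was likewise listed at 0 in PRC1-CD and in the wild type of DKO. LOC108167601 (-3.04) had 21.4 and 11.5 RPKM in PRC1-CD, 13.7 and 21.2 RPKM in PRC1-WT, 8.9, 12.3 and 6.76 RPKM in DKO and 0.66, 0.27 and 0.09 RPKM in wild type. Defb41 differed by -6.18 and Erdr1 by -3.22, both near 0 in PRC1-CD and expressed in the other groups, Defb41 at 146, 41.6 and 76.2 RPKM in DKO against 50.7, 44.96 and 33.5 RPKM in wild type. Gm40986 (-3.01) had 10.8, 8.86 and 12.3 RPKM in DKO and at most 0.4 RPKM in any other library.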

How the results depend on the processing

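The counts of 2309 higher and 750 lower genes rest on 2 libraries a group. Without PRC1-CD replicate 1 they were 1431 and 112, without PRC1-CD replicate 2 they were 1220 and 132, without PRC1-WT replicate 1 they were 1156 and 169, and without PRC1-WT replicate 2 they were 1041 and 197, where the lone library is assumed to vary like the other group. A mean of at least 5 RPKM, which tests fewer genes, gave 1089 higher and 575 lower, no filter 2036 and 310, and quantile normalization 1608 and 1538, with 2339 calls shared in direction with the main 3059. The cause of the last 2 shifts was not tested. Median-ratio scaling (2242 and 911), a pseudocount of 0.1 (2250 and 712) and no variance trend (2314 and 740) stayed within 1.5 times. Replicate numbers do not show pairing (correlation of same-numbered deviations 0.088), and a replicate block gave 2414 higher and 850 lower genes and 1273 differences from DKO, against 1492.

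The count of differences from DKO was 711 at a mean of at least 5 RPKM, 1131 to 1625 with 1 library left out, 1931 with no filter, 1549 under median-ratio and 1523 under quantile scaling, and 1164 at a pseudocount of 0.1. Of 205 named called genes, 136 to 147 still passed with 1 library left out, 154 with no filter, 185 under quantile and 201 under median-ratio scaling, and none turned direction. The call at Iqcf1 was lost under 11 of 17 alternatives.

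Depth is unknown, so the number of reads behind a low RPKM value cannot be given. Genotype cannot be told apart from anything else that differed between the pools of the groups.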
